A study of Homo sapiens with 18 samples.

Results

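The genes described here are 10 members of the machinery that licenses replication origins: the helicase subunit genes MCM2, MCM3, MCM4, MCM5, MCM6 and MCM7, the helicase partner MCM10, the loading factors CDC6 and CDT1, and GMNN, which encodes geminin. The rule that picks them uses their names alone, and all 10 were found among the 20705 genes of the count table. Poly-A RNA was sequenced from CHL1 and A375, established human melanoma cell lines that the labels call WT in genotype, meaning that no gene had been engineered. CHL1 has wild-type BRAF and NRAS with mutant p53, and A375 has mutant BRAF with wild-type p53. CHL1 was grown in DMEM and A375 in RPMI-1640, each under DMSO for 72 hours (control), 1 μM palbociclib for 72 hours or for 6 days (CDK4/6i), or 500 nM GSK3326595 for 72 hours (PRMT5i). The A375 PRMT5i libraries carry CTX in their names, which the sources used here do not explain, and they were grouped by their treatment label. A375 alone also had a DMSO control at 6 days, so that the 6-day CHL1 libraries were compared with the 72-hour control, which all 3 CHL1 treatments therefore share, as the 72-hour treatments of A375 share theirs. Each of the 9 groups had 2 replicates, 18 libraries in all. Nothing in the labels says that the replicates were separate cultures, and the p-values then measure only the spread between libraries, which may be technical.

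An origin is licensed in G1, when the origin recognition complex, CDC6 and CDT1 load the ring of MCM2 to MCM7 onto DNA. The ring is switched on in S phase, with CDC45, the GINS complex and MCM10, and geminin then binds CDT1 so that no origin is licensed again. Most of these genes are classic targets of E2F transcription factors, which the retinoblastoma protein restrains until CDK4 and CDK6 phosphorylate it. Palbociclib blocks these kinases, while GSK3326595 blocks PRMT5, an arginine methyltransferase with many substrates, among them splicing factors.

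The libraries held between 16213475 and 37424081 counts on genes. The lowest group mean of a member was 11.4 CPM (the library-size-scaled count), for GMNN in A375 under CDK4/6i for 72 hours. Of the markers of the melanocyte lineage, MITF had a mean of 82.1 CPM in CHL1 and 128.4 CPM in A375, whereas PMEL stayed at or below 3.39 CPM in every library. SOX10 and MLANA, also listed, were not in the table. The A375 medians were 12.9 CPM for S100B but 0.35 for DCT, 0.17 for TYR and 0.47 for TYRP1. In CHL1 they were 33.3, 75.8, 0.03 and 2.48 CPM in the same order. The summed level of the 6 lineage markers in the table ranged from 143.0 to 268.2 CPM in CHL1 and from 121.5 to 271.3 CPM in A375. The 5 markers of other cell types in the table summed to between 12.7 and 59.0 CPM over all libraries. Of the latter, the leukocyte gene PTPRC moved with treatment in CHL1, where its mean was 7.02 CPM in the controls, 9.99 CPM under CDK4/6i for 72 hours, 14.0 CPM under PRMT5i and 15.6 CPM under CDK4/6i for 6 days, and its part in any result was not tested. In A375 it stayed at or below 0.614 CPM. The 2 CHL1 PRMT5i libraries and the 2 A375 controls of 6 days stood apart in base composition. The mean log2 CPM of genes with a GC content of at least 61.3%, less that of genes with at most 38.0%, both among expressed genes, was -2.75 and -2.12 in these CHL1 libraries and -2.43 and -1.21 in these A375 controls. It lay between -0.38 and 0.63 in the other 14 libraries. For the main tests that rest on these libraries, values after a correction for GC content stand beside them. The RPKM levels, their shares and sums, and the correlations with the ring subunits were not corrected.

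The promoters of the members are shown because all 10 members fell together in A375 under CDK4/6i, and because E2F-type letters recur in them. A link between these letters and the fall was not tested. RefSeq promoter windows on GRCh38.p14, from 250 bases before to 50 bases after the start of the gene, were matched for 8 of the 10 members, with 11 windows for these 8 genes. They were searched on both strands for E2F-type octamers, spelled TTTCCCGC, TTTCGCGC, TTTGCCGC, TTTGGCGC, TTTCCCGG, TTTCGCGG, TTTGCCGG and TTTGGCGG, which can overlap each other. All 8 genes held a match in at least 1 window, and 9 of the 11 windows held one, against 6.19% of all 35116 windows of the same length and 13 of 30 matched genes of the neighbouring pathway lists. With the 4 octamers that end in C alone, 7 of the 8 genes held a match, and MCM10 was the gene without one. By windows these were 7 of the 11, against 3.31% of all windows. GMNN had 2 windows and MCM7 had 3, of which 1 each held no match. Shown are 6 of the 8 genes, without MCM2 and MCM3, with the window that holds the most matches. The next lines run 5′ to 3′ on the strand of the gene, from 200 bases before to 30 bases after the start, with the E2F-type octamers in capitals.
MCM6: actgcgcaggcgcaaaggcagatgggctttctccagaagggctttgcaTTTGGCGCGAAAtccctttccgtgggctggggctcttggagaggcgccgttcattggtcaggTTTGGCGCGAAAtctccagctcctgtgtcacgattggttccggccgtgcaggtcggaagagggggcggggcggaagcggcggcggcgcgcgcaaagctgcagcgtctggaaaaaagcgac
MCM7: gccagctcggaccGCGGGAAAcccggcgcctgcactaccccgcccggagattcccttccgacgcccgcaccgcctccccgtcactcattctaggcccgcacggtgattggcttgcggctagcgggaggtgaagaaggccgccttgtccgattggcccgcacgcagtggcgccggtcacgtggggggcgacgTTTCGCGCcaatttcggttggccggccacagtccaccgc
MCM10: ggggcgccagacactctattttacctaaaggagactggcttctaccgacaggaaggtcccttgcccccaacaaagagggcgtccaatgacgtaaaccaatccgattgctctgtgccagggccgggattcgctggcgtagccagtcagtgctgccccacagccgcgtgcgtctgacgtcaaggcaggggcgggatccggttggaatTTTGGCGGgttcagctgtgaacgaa
CDC6: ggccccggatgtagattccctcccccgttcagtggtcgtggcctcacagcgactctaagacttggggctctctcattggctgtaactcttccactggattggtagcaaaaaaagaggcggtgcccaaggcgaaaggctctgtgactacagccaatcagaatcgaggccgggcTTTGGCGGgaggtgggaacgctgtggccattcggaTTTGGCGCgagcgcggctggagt
CDT1: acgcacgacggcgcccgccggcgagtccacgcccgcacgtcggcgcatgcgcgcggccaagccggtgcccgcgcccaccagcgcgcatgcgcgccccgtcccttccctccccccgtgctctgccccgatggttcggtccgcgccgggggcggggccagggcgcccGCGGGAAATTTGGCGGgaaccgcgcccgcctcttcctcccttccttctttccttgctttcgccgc
GMNN: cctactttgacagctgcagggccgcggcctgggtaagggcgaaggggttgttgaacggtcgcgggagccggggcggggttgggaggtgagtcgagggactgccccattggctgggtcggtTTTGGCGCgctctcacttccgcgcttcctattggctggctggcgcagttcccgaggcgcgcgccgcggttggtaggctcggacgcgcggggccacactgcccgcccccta

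These stretches lie at chr2:135876414-135876643 (MCM6), chr7:100101368-100101597 (MCM7), chr10:13161358-13161587 (MCM10), chr17:40287679-40287908 (CDC6), chr16:88803589-88803818 (CDT1) and chr6:24775213-24775442 (GMNN). In MCM6 the octamers form 2 blocks in which both strands match, starting 152 and 90 bases before the start of the gene. In CDT1 a match on each strand adjoins the other, starting 35 and 27 bases before the start. CDC6 held TTTGGCGG 28 bases before the start and TTTGGCGC 7 bases after it, and MCM10 held TTTGGCGG 5 bases after the start. The box CCAAT, read on both strands, was found in 6 of the 8 genes, or 8 of their 11 windows, and in 34.6% of all windows. The hexamer TTTGAA was found in 0 of the 8 genes and in 15.2% of all windows. A match here is a description of the letters in the window and not a binding site.

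On the genome build of the counts (GRCh37), MCM2 lies at chr3:127317253-127341279, MCM3 at chr6:52128812-52149679, MCM5 at chr22:35796127-35821424, MCM6 at chr2:136597196-136634013 and MCM7 at chr7:99689856-99699563. MCM10 lies at chr10:13203558-13253110, CDC6 at chr17:38444131-38460909, CDT1 at chr16:88870197-88875666 and GMNN at chr6:24775159-24786327. The canonical transcripts run from 1263 bases and 7 exons in GMNN to 4564 bases and 12 exons in CDC6. The GC content, taken from the longest annotated transcript of each gene, splits the members into equal groups. MCM2 (57.4%), MCM3 (51.6%), MCM5 (57.0%), MCM7 (57.6%) and CDT1 (64.3%) are above 50%, and MCM4 (47.0%), MCM6 (43.2%), MCM10 (43.3%), CDC6 (44.8%) and GMNN (43.6%) are below. An antisense lncRNA shares 1113 exon bases with MCM2, or 32.4% of its canonical transcript, and without a statement of strand in the sources used here the reads of the pair cannot be told apart.

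**Figure D1:**
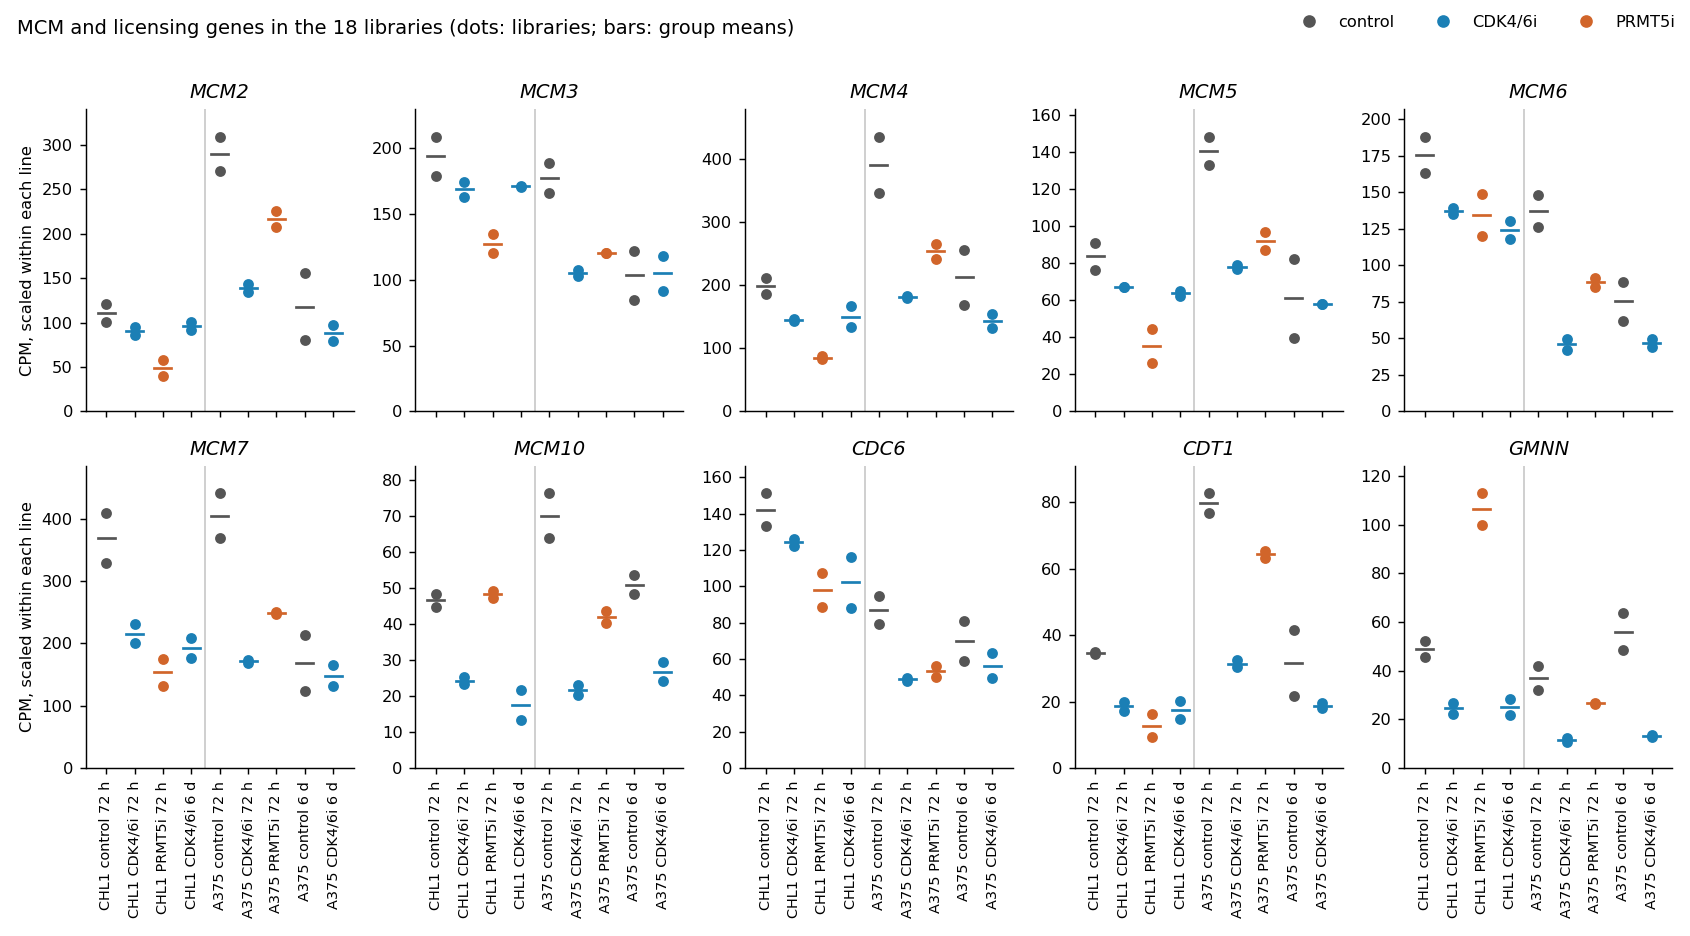
CPM of each of the 10 genes (y axis, scaled within each cell line, from 0) in the 9 groups (x axis), with a dot for each library and a bar for the group mean. In A375 the 2 CDK4/6i libraries of 72 hours lie below both controls for every gene, and GMNN in CHL1 is highest under PRMT5i, at 112.9 and 99.8 CPM.

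Levels were first compared between genes as RPKM, in which the scaled count is divided by the length of the canonical transcript. MCM7 was the most abundant member in untreated cells of both lines, at 161.8 ± 25.3 RPKM (SD, n = 2) in CHL1 and 151.6 ± 19.6 RPKM (SD, n = 2) in A375 at 72 hours. In CHL1 it was followed by MCM3 (68.2 RPKM), MCM4 (52.9), MCM6 (50.6), GMNN (41.8), MCM2 (34.7), CDC6 (33.7), MCM5 (26.1), CDT1 (14.0) and MCM10 (11.1). The libraries of MCM4 and MCM6 overlapped in this order, as did those of MCM2 and CDC6, and no other neighbours did. In A375 the order was MCM4 (88.9 RPKM), MCM2 (78.0), MCM3 (53.3), MCM5 (37.5), MCM6 (33.8), CDT1 (27.6), GMNN (27.0), CDC6 (17.6) and MCM10 (14.2) after MCM7. Here MCM4 overlapped with MCM2, MCM5 with MCM6, and CDT1 with GMNN.

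MCM7 also made up the largest share of the summed RPKM of the 6 ring subunits in each of the 18 libraries, from 29.4% in an A375 control of 6 days to 41.8% in a CHL1 control. MCM5 was the smallest share in CHL1, at 4.29% to 7.75%. In A375 at 72 hours MCM6 was the smallest, at 5.14% to 7.64%. The sum itself was 430.3 and 358.3 RPKM in the CHL1 controls and 404.8 and 481.1 RPKM in the A375 controls of 72 hours. Every treated library lay below the 72-hour controls of its line, down to 189.8 RPKM in CHL1 (PRMT5i) and 160.3 RPKM in A375 (CDK4/6i, 6 days). The CHL1 PRMT5i libraries and the A375 6-day controls carry the GC shift, for which these sums were not corrected. After the GC correction, the log2 changes under PRMT5i in CHL1 were -0.07 to -0.26 for MCM2, MCM3, MCM5 and MCM7. They were -1.23 for MCM4 and -0.85 for MCM6. The A375 controls of 6 days, at 165.6 and 262.4 RPKM, overlapped with their treated libraries, at 190.7 and 160.3 RPKM.

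**Figure D2:**
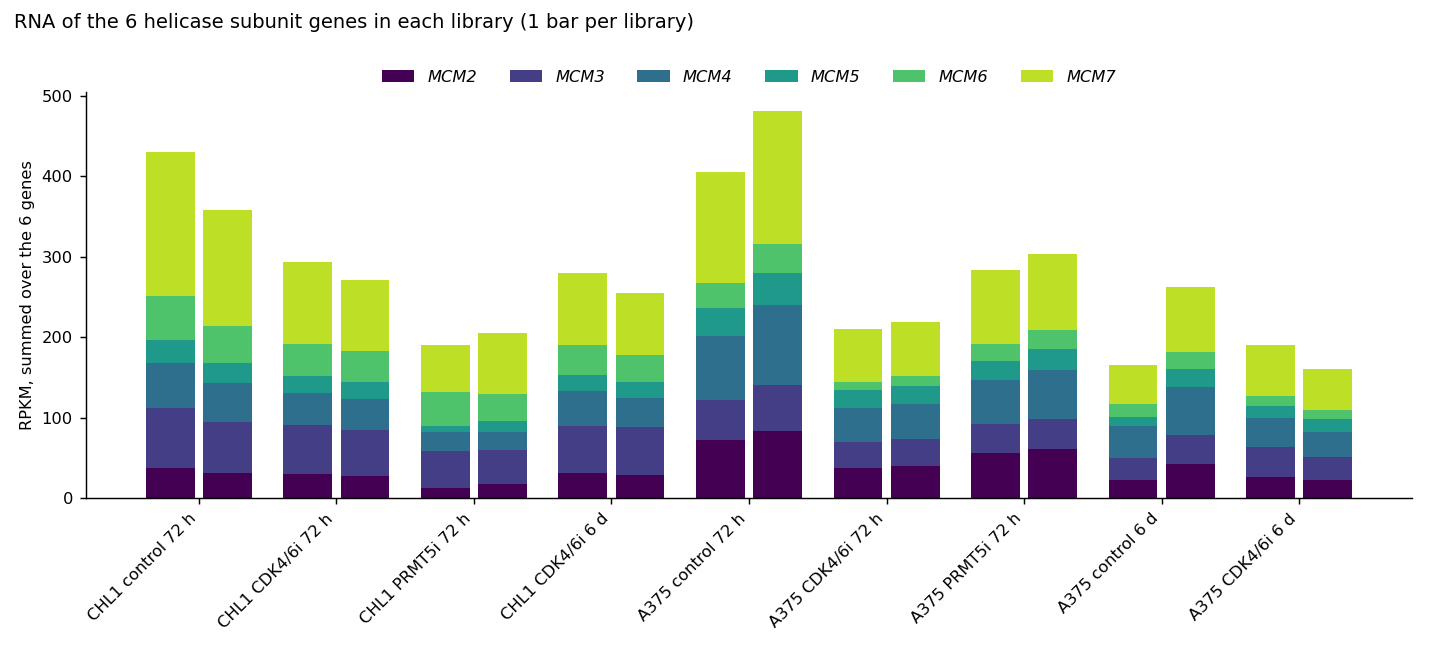
Stacked RPKM (y axis) of the 6 ring subunit genes in each library (x axis, a bar per library and 2 per group), each colour being a gene. MCM7 is the widest band in each bar, and the sum of the A375 72-hour controls (404.8 and 481.1 RPKM) stands above that of the other A375 libraries, all at or below 303.9 RPKM. The values were not corrected for GC content.

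The controls of the lines were compared to see how the members differ before treatment. With CHL1 against A375 at 72 hours, 3 members were lower (MCM2, MCM4 and CDT1) and 3 were higher (MCM6, CDC6 and GMNN) at an adjusted p below 0.05, against 29.6% of all genes lower and 29.3% higher. MCM2 was at 34.7 ± 4.58 RPKM (SD, n = 2) in CHL1 and 78.0 ± 7.67 RPKM (SD, n = 2) in A375, a log2 difference of -1.17 ± 0.23 (SE, adjusted p = 0.000314). CDC6, the ATPase that helps load the ring, stood at 33.7 against 17.6 RPKM (0.93 ± 0.19, adjusted p = 0.000327). MCM7 did not pass (0.10 ± 0.22, adjusted p = 0.724). After the GC correction MCM2, MCM4, CDC6, CDT1 and GMNN kept their calls, and MCM6 did not pass (0.40, adjusted p = 0.0575). MCM3 (0.46, adjusted p = 0.0049) and MCM7 (0.37, adjusted p = 0.0256) were then called higher in CHL1, and MCM10 lower (-0.54, adjusted p = 0.0117). The lines differ in medium and, at 72 hours, in library set, from which the difference between lines cannot be told apart.

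Under CDK4/6i for 72 hours, all 10 members fell in A375, against 7.11% of all genes. The log2 changes ran from -0.75 (MCM3) to -1.69 (MCM10), with a median of -1.17 beside 0.002 for all genes. Because RNA of whole cultures was sequenced, fewer cells in S phase and less RNA per cell cannot be told apart. MCM10 was at 63.8 and 76.3 CPM in the controls and at 20.2 and 23.1 CPM in the treated libraries. This fall of 3.23-fold, with a log2 change of -1.69 ± 0.19 (SE, adjusted p = 4.5e-05), was larger than the spread of either group. GMNN was at 32.0 and 41.8 CPM in the controls and at 10.7 and 12.2 CPM under CDK4/6i (log2 change -1.69 ± 0.21, adjusted p = 9.36e-05). MCM6 fell the most of the ring subunits, from 126.2 and 148.3 CPM to 42.2 and 49.8 CPM (-1.58 ± 0.20, adjusted p = 0.000106).

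The other ring subunits also fell in A375 at 72 hours. MCM7 (-1.24 ± 0.23), MCM4 (-1.11 ± 0.21) and MCM2 (-1.06 ± 0.25) had changes within 1 SE of each other, and the smallest changes were those of MCM5 (-0.85 ± 0.25, adjusted p = 0.0331) and MCM3 (-0.75 ± 0.20, adjusted p = 0.0207). The loading factors differed in size, with CDT1 going from 76.7 and 82.6 CPM to 32.4 and 30.5 CPM (-1.34 ± 0.24, adjusted p = 0.0016) and CDC6 from 79.3 and 95.0 CPM to 49.6 and 48.0 CPM (-0.84 ± 0.20, adjusted p = 0.0111). No treated library reached a control for any member. The count was 5 without control replicate 2 or without CDK4/6i replicate 1, and 6 without CDK4/6i replicate 2, while MCM6, MCM7, MCM10, CDT1 and GMNN passed in all 23 alternatives tried.

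In CHL1 at 72 hours of CDK4/6i, 3 members fell: GMNN (-0.995 ± 0.18, adjusted p = 0.0135), MCM10 (-0.95 ± 0.21, adjusted p = 0.0265) and MCM7 (-0.78 ± 0.19, adjusted p = 0.0369), against 2.72% of all genes lower. GMNN stood at 52.3 and 45.5 CPM in the controls and at 22.3 and 26.7 CPM under CDK4/6i. MCM10 stood at 48.4 and 44.9 CPM against 23.3 and 25.2 CPM, and MCM7 at 409.6 and 328.8 CPM against 230.8 and 200.4 CPM. The remaining 7 members lay below zero without passing, the nearest being CDT1 (-0.89 ± 0.25, adjusted p = 0.0622). CDT1 was called lower in 7 of 21 alternatives, among them the GC correction (-1.09 ± 0.15, adjusted p = 0.00216). Both treated libraries were below both controls for all 10 members, as they were for 28.1% of all genes. The ring subunits other than MCM7 had values between -0.20 (MCM3) and -0.45 (MCM4). Leaving out any of the 4 libraries compared gave 0 members at the threshold.

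The test of the difference between the lines in the 72-hour response named MCM6. Its log2 change was -0.36 ± 0.16 in CHL1, with controls at 188.0 and 163.1 CPM and treated libraries at 139.4 and 134.8 CPM, and the difference from A375 was 1.16 ± 0.25 (adjusted p = 0.0404). MCM6 was the 1 member of 10 called in this test, higher in CHL1, against 0.241% of all genes. All 10 differences were above zero, that is, each member fell by less in CHL1, but the other 9 did not pass (0.39 to 0.72). Without any of the 8 libraries compared, or without either A375 PRMT5i library, the MCM6 difference no longer passed.

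After 6 days of CDK4/6i, CHL1 had 4 members lower than in the 72-hour control: MCM7, MCM10, CDT1 and GMNN, against 7.80% of all genes lower and 8.83% higher. Since CHL1 had no 6-day control, palbociclib and the longer time in culture cannot be told apart in this comparison. MCM10 fell furthest, to 21.6 and 13.3 CPM (-1.42 ± 0.21, adjusted p = 0.0017). CDT1 fell from 34.8 and 34.2 CPM to 20.3 and 14.8 CPM (-0.97 ± 0.25, adjusted p = 0.0212), and GMNN to 28.6 and 21.7 CPM (-0.96 ± 0.18, adjusted p = 0.00574). MCM2, MCM3, MCM4 and MCM5 lay between -0.18 and -0.41, and CDC6 (-0.48 ± 0.18, adjusted p = 0.0857) and MCM6 (-0.50 ± 0.16, adjusted p = 0.0531) did not pass. The count was 1 without control replicate 1, and 7 when the PRMT5i libraries, which carry the GC shift, were left out of the fit, against 11.7% of all genes lower.

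Between 72 hours and 6 days of CDK4/6i in CHL1, 0 members passed edgeR's test (either direction, 0.0145% of all genes), and 1 had an unadjusted p below 0.05. That member was MCM10, with a log2 change of -0.47 ± 0.21 (adjusted p = 0.617). DESeq2 and limma voom also called 0 members. The other 9 members changed by between -0.28 (CDC6) and 0.09 (MCM2).

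In A375 at 6 days the comparison depended on the control. Against the 6-day control, 5 members fell (MCM4, MCM6, MCM10, CDT1 and GMNN), against 21.3% of all genes lower and 21.8% higher. GMNN fell most of all, from 63.7 and 48.5 CPM to 13.7 and 12.9 CPM, which is 4.21-fold (-2.07 ± 0.21, adjusted p = 6.6e-06), and it passed in all 21 alternatives. MCM10 fell from 48.3 and 53.5 CPM to 29.5 and 24.1 CPM (-0.93 ± 0.18, adjusted p = 0.00105). For MCM2, MCM3, MCM5, MCM7 and CDC6 the control and treated libraries overlapped, with control replicate 1 low: MCM7 was at 123.8 and 213.1 CPM in the controls and at 164.7 and 131.7 CPM in the treated libraries (-0.18 ± 0.23, adjusted p = 0.541).

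These 6-day controls are the A375 libraries with the GC shift. After the GC correction 8 members were lower, all but MCM6 (-0.45, adjusted p = 0.0991) and CDC6 (-0.22, adjusted p = 0.364), against 21.0% of all genes. CDT1, the member richest in GC, moved from -0.75 to -1.31, and MCM7 from -0.18 to -0.75. Against the 72-hour control all 10 were lower, at -0.63 to -2.08, against 15.0% of all genes, though that control belongs to another library set. The count was 9 without control replicate 1, 3 without CDK4/6i replicate 1 and 2 without CDK4/6i replicate 2.

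**Figure D3:**
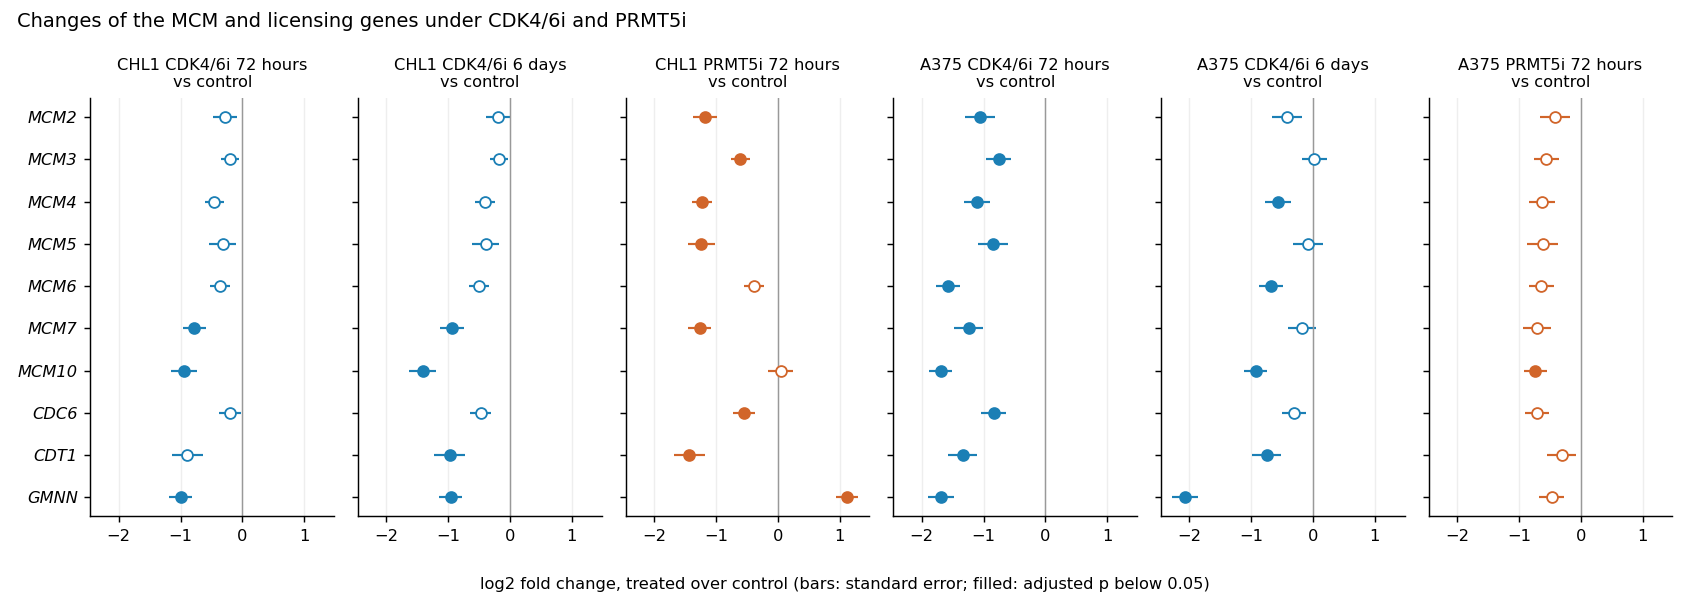
Log2 fold change of each gene (rows) against its control (x axis) in the 6 treatment comparisons, with bars for the standard error and filled dots for an adjusted p below 0.05. All 10 dots are filled in A375 under CDK4/6i for 72 hours, and GMNN under PRMT5i in CHL1 (1.12) is the filled dot to the right of zero.

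The 6-day controls of A375 differed from those of 72 hours with no drug in either. Of the members, 8 were lower and GMNN was higher at 6 days, against 23.8% of all genes lower and 24.0% higher. CDT1 was at 76.7 and 82.6 CPM at 72 hours and at 21.8 and 41.4 CPM at 6 days (-1.33 ± 0.24, adjusted p = 0.000408), MCM2 at 271.1 and 309.5 against 80.3 and 155.4 CPM (-1.30 ± 0.25), and GMNN at 32.0 and 41.8 against 63.7 and 48.5 CPM (0.60 ± 0.20, adjusted p = 0.0207). Time and library set cannot be told apart in this comparison. The GC-rich members had a median of -1.27 and the others one of -0.46, and after the GC correction these medians were -0.54 and -0.69. GMNN then had 0.39 ± 0.14 and no longer passed (adjusted p = 0.0537). Without the 72-hour control replicate 2, the count of 9 became 5.

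For the change of the CDK4/6i effect with time in A375, 0 members passed (either direction, 1.08% of all genes), with 5 at an unadjusted p below 0.05 and 1 called by DESeq2. The change at 6 days less that at 72 hours was above zero for 9 members, at 0.52 (CDC6) to 1.06 (MCM7), and was -0.38 ± 0.29 for GMNN. After the GC correction 0 passed as well, and the values were 0.63 for MCM7, 0.53 for CDC6 and -0.28 for GMNN. Without the 6-day control replicate 2, the same test called 9 members.

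PRMT5i in CHL1 split the members. MCM2, MCM3, MCM4, MCM5, MCM7, CDC6 and CDT1 fell and GMNN rose, 7 and 1 of 10, against 27.6% of all genes lower and 26.4% higher. GMNN, the inhibitor of CDT1, went from 52.3 and 45.5 CPM to 112.9 and 99.8 CPM, which is 2.18-fold higher (1.12 ± 0.18, adjusted p = 0.000386). CDT1 itself went from 34.8 and 34.2 CPM to 9.25 and 16.4 CPM, which is 2.69-fold lower (-1.43 ± 0.25, adjusted p = 0.000605). Neither pair of groups overlapped, and before the GC correction the inhibitor and its target moved in opposite directions in both libraries. After the correction CDT1 had -0.08 ± 0.15 and did not pass (adjusted p = 0.733), while GMNN had 0.72 ± 0.14 (adjusted p = 0.0039).

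The ring subunits under PRMT5i in CHL1 ranged from MCM7 (-1.26 ± 0.19) to MCM6, which did not pass (-0.39 ± 0.16, adjusted p = 0.061). MCM4 was at 211.8 and 185.5 CPM in the controls and at 87.1 and 83.7 CPM under PRMT5i (-1.22 ± 0.16, adjusted p = 0.000148). MCM5 was at 90.7 and 76.4 CPM against 26.3 and 44.6 CPM (-1.24 ± 0.22, adjusted p = 0.000606). The treated libraries of MCM5 lay further apart than those of MCM4, with replicate 1, the library with the larger GC shift, the lower. MCM10 overlapped with its controls, at 49.3 and 47.1 CPM against 48.4 and 44.9 CPM (0.05 ± 0.21, adjusted p = 0.889), an interval that covers changes of either sign.

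The changes under PRMT5i in CHL1 followed the GC content of the members, with Pearson's r = -0.74 over the 10 genes, which share the same 4 libraries. The 5 GC-rich members had a median log2 change of -1.24 and the 5 others one of -0.39. After the GC correction, 3 members were lower and 1 was higher, against 17.1% and 16.9% of all genes. MCM4 was still called lower (-1.23, adjusted p = 0.00025), as was CDC6 (-0.81, adjusted p = 0.00238). MCM6 had -0.85 (adjusted p = 0.000981) and was called lower, as it was over the same genes without the correction. GMNN was still higher, by 0.72 ± 0.14 (adjusted p = 0.0039), and it passed in all 20 alternatives, as MCM4 did. CDT1 (-0.08, adjusted p = 0.733), MCM2 (-0.15), MCM3 (-0.07), MCM5 (-0.26) and MCM7 (-0.21) no longer passed, and the median over all 10 was -0.23. The GC shift and PRMT5i cannot be told apart in CHL1, since both PRMT5i libraries carry it.

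**Figure D4:**
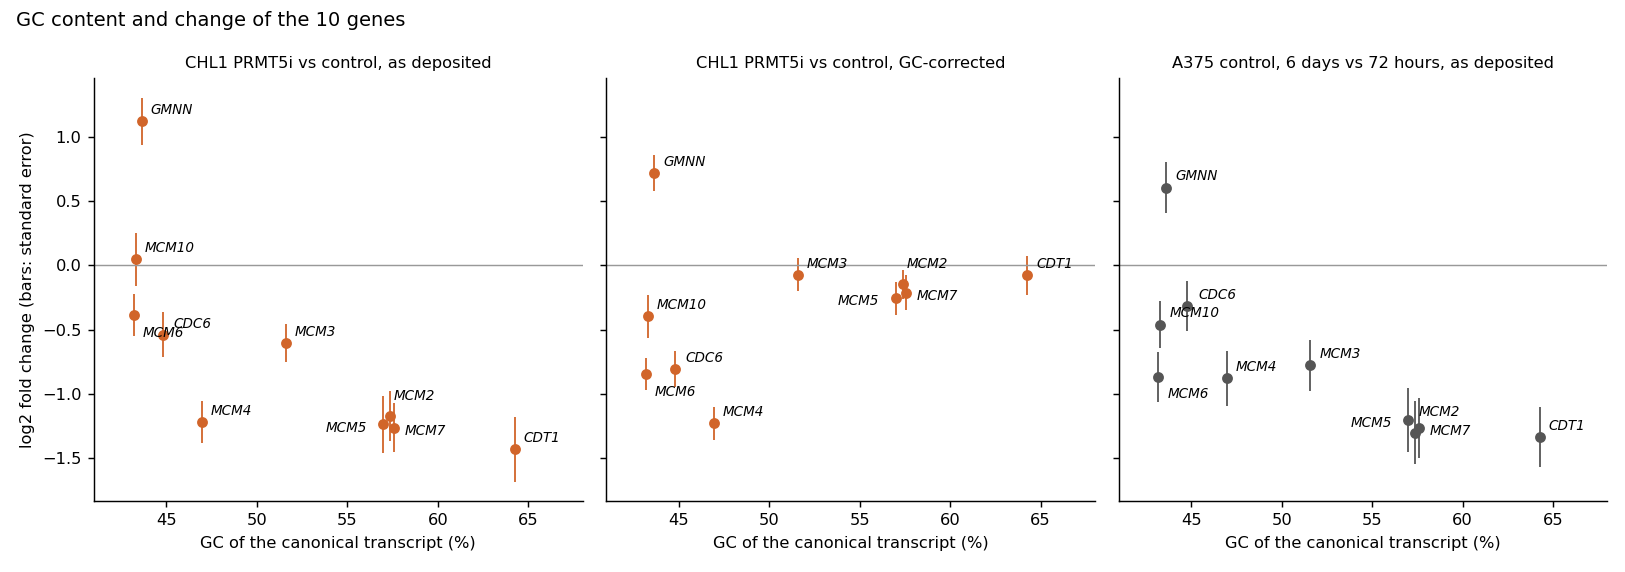
Log2 fold change with its standard error (y axis) against GC content (x axis, %) for the 10 genes. Left and middle, CHL1 PRMT5i against control before and after the GC correction. Right, the A375 control of 6 days against 72 hours. GC content is that of the longest transcript of each gene, although the axis label says canonical. The genes above 50% GC sit between -0.60 and -1.43 on the left and between -0.07 and -0.26 in the middle, while GMNN is above zero in each panel.

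In A375 under PRMT5i, MCM10 was the 1 member called lower, from 63.8 and 76.3 CPM to 40.4 and 43.7 CPM (-0.74 ± 0.18, adjusted p = 0.0454), against 1.74% of all genes lower. All 10 changes were below zero, at -0.31 (CDT1) to -0.74 (MCM10), with a median of -0.62, and 8 had an unadjusted p below 0.05. Both treated libraries lay below both controls for each of the 10 members, as for 27.1% of all genes. CDC6 was at 79.3 and 95.0 CPM in the controls and at 50.4 and 56.4 CPM under PRMT5i (-0.71 ± 0.20, adjusted p = 0.0718).

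The call depended on which libraries entered the fit and on the tool, since limma voom called 0 members and DESeq2 called 3. With the 6 A375 libraries of 72 hours alone in the fit, the median was again -0.62 and 9 members passed, all but CDT1 (-0.31, adjusted p = 0.0509), against 9.13% of all genes lower. Without either 6-day control the count was 8, and without any other A375 library it was 0. With the replicate number as a block, all 10 members passed. GMNN, which rose under PRMT5i in CHL1, was at 26.8 and 26.5 CPM in A375 against 32.0 and 41.8 CPM in its controls (-0.47 ± 0.20, adjusted p = 0.261).

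The line difference in the PRMT5i response was called for 3 members, 1 lower and 2 higher in CHL1, against 22.1% and 18.8% of all genes. GMNN differed by 1.56 ± 0.28 (adjusted p = 0.000485) and MCM10 by 0.75 ± 0.27 (adjusted p = 0.0346). CDT1 differed by -1.15 ± 0.36 (adjusted p = 0.0152). After the GC correction MCM10 (0.27 ± 0.24, adjusted p = 0.454) did not pass, and CDT1 had the opposite sign and did not pass (0.30 ± 0.19, adjusted p = 0.277). MCM3 (0.545 ± 0.182, adjusted p = 0.0402) and MCM7 (0.589 ± 0.192, adjusted p = 0.0363), not called before the correction, were called higher in CHL1 after it. GMNN had 1.12 ± 0.21 after the correction and passed in all 27 alternatives. The count was 1 without CHL1 PRMT5i replicate 1, 5 without replicate 2, and 6 or 7 without the first or the other A375 control of 6 days. For the line difference at 6 days of CDK4/6i, the CHL1 change was taken from the 72-hour control and the A375 change from the 6-day control. Cell line and control time therefore cannot be told apart there. GMNN was 0.60 ± 0.20 higher in the A375 controls of 6 days than in those of 72 hours. For this difference, the GC correction gave 1.00 ± 0.21 for GMNN (adjusted p = 0.00347) and 0.69 ± 0.18 for MCM2 (adjusted p = 0.0147), both called. Before the correction GMNN was the 1 member called, with a change 1.10 ± 0.28 higher in CHL1 (adjusted p = 0.00944), against 12.4% of all genes. It was not called without CHL1 control replicate 2, and 3 members were called without the A375 6-day control replicate 2.

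The inhibitors were also compared directly at 72 hours. In CHL1, 5 members were lower under PRMT5i than under CDK4/6i (MCM2, MCM3, MCM4, MCM5 and MCM7) and 2 were higher, against 29.4% and 28.4% of all genes. GMNN was 4.34-fold higher under PRMT5i (2.12 ± 0.19, adjusted p = 1.43e-05), at 112.9 and 99.8 CPM against 22.3 and 26.7 CPM, and MCM10 was 1.99-fold higher (0.99 ± 0.21, adjusted p = 0.00146). After the GC correction MCM2, MCM3 and MCM5 did not pass, with values above zero (0.13 to 0.23). MCM7 (0.66 ± 0.14, adjusted p = 0.00343) and CDT1 (1.01, adjusted p = 0.000608) were then called higher under PRMT5i. Called lower after the correction were MCM4 (-0.835, adjusted p = 0.000619), MCM6 (-0.58, adjusted p = 0.00367) and CDC6 (-0.696, adjusted p = 0.00285). Of these, MCM4 alone was called before it. GMNN had 1.62 and MCM10 had 0.46 (adjusted p = 0.0475) after the correction. In A375, 4 members were higher under PRMT5i (MCM6, MCM10, CDT1 and GMNN), against 2.37% of all genes, by 0.94 (MCM6) to 1.22 (GMNN). Leaving out any of the 4 libraries compared gave 0 members, and leaving out either 6-day control gave 7. CDC6 did not pass in A375, at 49.6 and 48.0 CPM under CDK4/6i and 50.4 and 56.4 CPM under PRMT5i (0.13 ± 0.20, adjusted p = 0.773).

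The ratio of CDT1 to GMNN was taken within each library, from their RPKM. It was 0.316 and 0.356 in the CHL1 controls, 0.421 and 0.308 under CDK4/6i for 72 hours and 0.336 and 0.324 at 6 days. Under PRMT5i it was 0.0388 and 0.0777, below each of the other CHL1 libraries. In A375 at 72 hours it was 1.14 and 0.936 in the controls, 1.44 and 1.18 under CDK4/6i and 1.16 and 1.13 under PRMT5i. The 6-day A375 controls, at 0.162 and 0.405, were below their CDK4/6i libraries, at 0.673 and 0.665. CDT1 and GMNN are the GC-richest member and one of the GC-poorer, and in both lines the lowest ratios belong to the libraries with the GC shift. The log2 change of CDT1 less that of GMNN, under PRMT5i in CHL1, was -2.55 before and -0.79 after the GC correction. Between the A375 controls it was -1.94 before and -0.87 after.

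**Figure D5:**
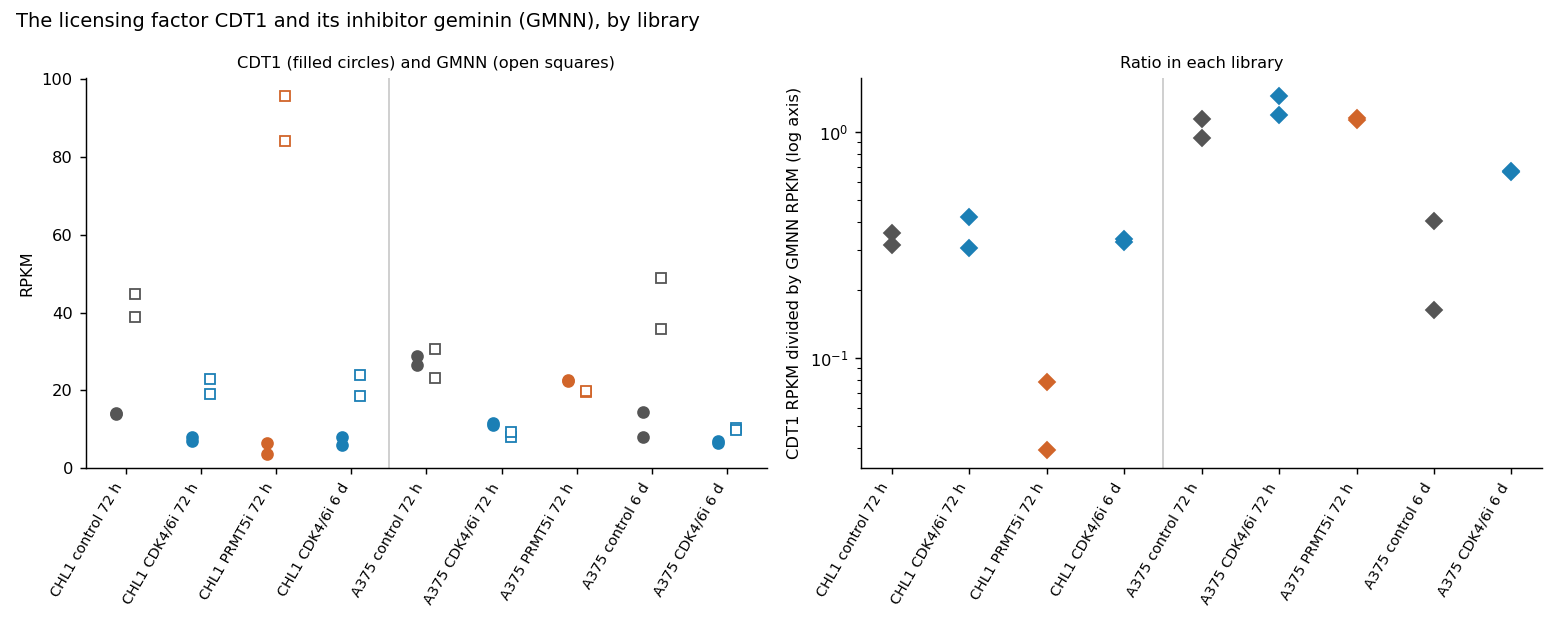
Left, RPKM (y axis) of CDT1 (filled circles) and GMNN (open squares) in each library of the 9 groups. Right, the ratio of CDT1 to GMNN in each library on a log axis, lowest in CHL1 under PRMT5i (0.0388 and 0.0777).

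As a description of how the members moved together, the log2 levels of the 9 groups were centred within each line and each member was compared with the mean of the 6 ring subunits. Pearson's r over the 9 groups was between 0.86 (MCM6) and 0.98 (MCM4) for the subunits, which are part of that mean. It was 0.95 for CDT1, 0.73 for CDC6, 0.45 for MCM10 and 0.10 for GMNN. These levels were not corrected for GC content, and the CHL1 PRMT5i group and the A375 6-day controls carry the GC shift. The GC-rich MCM2, MCM3, MCM5, MCM7 and CDT1 had 0.95 to 0.97. Of the GC-poorer members, MCM4 had 0.98 and the others had lower values than these. How far the GC shift shapes this order, or the likeness of other genes below, was not tested. Among 10516 other genes that averaged 10 CPM or more, the 5 most like the ring subunits were FAM64A (r = 0.987), APOBEC3B (0.985), TK1 (0.985), CEP85 (0.979) and CENPM (0.978). TK1 encodes thymidine kinase, which makes a precursor of DNA, and CENPM a centromere protein.

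The neighbouring steps of the pathway were described with 35 genes in 5 lists, which were named with earlier results known. Under CDK4/6i for 72 hours, 15 of the 35 fell in A375 and 0 rose, and 7 fell in CHL1 and 0 rose, against 7.11% and 2.72% of all genes lower. The CMG and origin firing list, which holds the partners that turn the loaded ring into a moving helicase, had 9 of 14 lower in A375 (median -1.13) and 5 of 14 in CHL1 (median -0.43). GINS2, a subunit of the GINS complex, fell most in both, by -1.86 ± 0.26 in A375 and -0.999 ± 0.18 in CHL1. Of the origin recognition complex, 1 of 7 genes fell in each line, and it was ORC1, the subunit whose level is tied to the cell cycle (-1.15 ± 0.24 in A375 and -0.80 ± 0.18 in CHL1).

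Of the helicase loading and licensing partners, 1 of 4 fell in each line, namely MCMBP, which binds MCM subunits outside the chromatin (-1.01 ± 0.17 in A375 and -0.74 ± 0.17 in CHL1). Of the 7 genes for turnover of CDT1 and geminin, 2 fell in A375 and 0 in CHL1. DTL, which marks CDT1 for destruction in S phase, fell most in A375 (-1.59 ± 0.17) and had the value -0.41 ± 0.16 in CHL1. Of the 3 paralogs, MCM8, MCM9 and MCMDC2, 2 fell in A375, most of all MCM9 (-0.98 ± 0.21), and 0 in CHL1.

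At 6 days of CDK4/6i, 9 of the 35 genes fell and 1 rose in CHL1, against 7.80% and 8.83% of all genes, and 21 fell and 3 rose in A375, against 21.3% and 21.8%. In CHL1 the largest falls were those of GINS2 (-1.32 ± 0.18), ORC1 (-0.98 ± 0.18), MCMBP (-0.88 ± 0.18) and MCM8 (-0.55 ± 0.16), each in its list, and CUL4B, the scaffold of a ubiquitin ligase, rose (0.57 ± 0.16). In A375 they were those of TICRR (-1.71 ± 0.20), which helps to fire origins, DTL (-1.67 ± 0.17), MCM9 (-1.19 ± 0.20), ORC4 (-0.99 ± 0.19) and MCMBP (-0.86 ± 0.17). DDB1 (0.97 ± 0.21) and LRWD1 (0.96 ± 0.24) rose there. After the GC correction 15 of the 35 fell and 3 rose in A375, against 21.0% and 21.8% of all genes. Their median went from -0.71 to -0.22. The A375 values of single genes given above were not corrected. GC content was 37.7% in ORC4, 37.6% in MCM9, 42.2% in DTL, 43.0% in MCMBP and 52.05% in TICRR, which fell. It was 51.4% in DDB1 and 62.25% in LRWD1, which rose.

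Under PRMT5i in CHL1, 10 of the 35 genes fell and 17 rose, with a median of 0.40, against 27.6% and 26.4% of all genes. DBF4, the activator of the kinase CDC7, rose by 1.66 ± 0.18, CUL4B by 1.54 ± 0.17, ORC4 by 1.42 ± 0.15, MCMDC2 by 1.41 ± 0.24 and NOC3L by 1.24 ± 0.16. RECQL4 (-1.59 ± 0.25), LRWD1 (-1.55 ± 0.24), CIZ1 (-1.47 ± 0.19) and FZR1 (-1.27 ± 0.26) fell most in their lists. The genes that rose most were poor in GC and those that fell rich in it, with 37.7% in DBF4 and ORC4 and 65.5% in RECQL4, and after the GC correction 5 fell, 9 rose and the median was 0.08, against 17.1% and 16.9% of all genes. In A375, 6 of the 35 fell and 0 rose, against 1.74% of all genes lower, with the largest falls in TICRR (-0.98 ± 0.21), DTL (-0.89 ± 0.17) and MCM8 (-0.74 ± 0.16).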

How the data were processed

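RNA was sequenced from 18 libraries of CHL1 and A375 cells, with 2 replicates in each of 9 groups. Per the paper's methods and the submitters' processing notes, the authors checked reads with FastQC 0.11.6, aligned them to GRCh37 with HISAT2 2.0.4, used Picard 2.17.3 and SAMtools 1.18, and counted reads per gene with HTSeq (0.11.2 in the processing notes). The deposited table is named as normalised but holds whole-number counts per gene symbol, with different library totals, and was used as raw counts. Its totals ranged from 20509245 to 37424081 in CHL1 and from 16213475 to 36036772 in A375. All 18 columns were mapped to samples by name.

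Counts were scaled by TMM and tested with edgeR 4.0.16 (quasi-likelihood) in R 4.3.3. All libraries of a line entered one fit, and all 18 entered the comparisons between lines. P-values were adjusted by the Benjamini-Hochberg method over 20705 genes, with a threshold of 0.05, and all p-values in the text are two-sided. CPM was scaled within a line. RPKM used the length of the canonical GENCODE v44lift37 transcript and a scaling over all 18 libraries. GC content was that of the longest GENCODE v44lift37 transcript of a gene. For the GC correction, a loess curve (span 0.4) of log2 level on GC content was removed from each library over 13675 genes that averaged 1 CPM or more and had a GC value. Likeness to the ring subunits was computed over genes that averaged 10 CPM or more.

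The members and pathway lists were chosen with earlier results of these data known. All members were reported. Of the pathway lists, the gene with the largest called rise and fall per comparison was named, together with the 5 genes most like the ring subunits. DTL in CHL1 was added beside its A375 value. Alternatives were limma voom 3.58.1, DESeq2 1.42.0, other normalizations, filters and thresholds, other sets of libraries, a replicate block and leaving out each library. Fits on genes with a GC value only, without the CHL1 PRMT5i libraries and with crossed replicate numbers were chosen after seeing the data. The test was checked on simulated counts. These carried no GC shift, so that the check does not cover the libraries that do.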

Additional observations from a re-analysis of the deposited data

Results flagged for a closer look

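Each of the following differs between the cell lines in a test of the difference itself (edgeR, change in CHL1 minus change in A375). For CDK4/6i at 72 hours, MCM6 changed by -0.36 in CHL1 and -1.58 in A375, a difference of 1.16. For CDK4/6i at 6 days, GMNN changed by -0.96 in CHL1 and -2.07 in A375, a difference of 1.10, with controls of different times. For PRMT5i at 72 hours, GMNN changed by 1.12 in CHL1 and -0.47 in A375, a difference of 1.56, and both CHL1 libraries lay above their controls while both A375 libraries lay below theirs. MCM10 had 0.05 in CHL1 and -0.74 in A375, a difference of 0.75, which was 0.27 and did not pass after the GC correction. CDT1 had -1.43 in CHL1 and -0.31 in A375, a difference of -1.15, which was 0.30 and did not pass after the GC correction.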

How the results depend on the processing

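Of 1075 values of single members under alternatives other than leaving out a library, 889 kept their direction and side of the threshold, 94 lost their call, 74 gained one and 18 changed sign. Of 924 values without 1 library, these were 763, 124, 29 and 8. Where no cause is named, the cause was not tested. With 2 libraries per group, a missing call does not show equal levels.

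Under CDK4/6i for 72 hours in CHL1, 0 members passed an adjusted p below 0.01 or an absolute log2 change of at least 1, 6 passed with only the groups compared, and leaving out 1 library gave 0 to 4. At 6 days in CHL1, 1 passed a log2 change of 1, 7 passed without the PRMT5i libraries (chosen after seeing the data), and leaving out 1 library gave 1 to 6. Under PRMT5i in CHL1, 4 passed after the GC correction and leaving out 1 library gave 6 to 9. For A375, CDK4/6i at 72 hours gave 5 to 10 without 1 library. At 6 days, 2 passed at 0.01, 1 at a log2 change of 1, 8 with the GC correction, 2 with only the groups compared, 10 against the 72-hour control, and 2 to 9 without 1 library. Under PRMT5i in A375, 0 passed at 0.01, at a log2 change of 1, with median-of-ratios scaling or with limma voom, 3 passed with DESeq2, 5 with the GC correction, 7 with only the groups compared, 9 with the 72-hour libraries only, and 0 to 8 without 1 library.

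Between 6 days and 72 hours in CHL1, leaving out 1 library gave 0 to 0. For the change with time in A375, DESeq2 called 1 and leaving out 1 library gave 0 to 9. For PRMT5i against CDK4/6i, 1 passed a log2 change of 1 in CHL1 (5 to 7 without 1 library). In A375, 2 passed at 0.01, 2 at a log2 change of 1, 7 with only the groups compared, 7 with the 72-hour libraries only, and 0 to 7 without 1 library. For the A375 controls, 4 passed a log2 change of 1 (5 to 10 without 1 library), and for the controls of the lines 1 did (4 to 8). For the line difference at 72 hours of CDK4/6i, 0 passed at 0.01, 2 with the GC correction, 7 with only the groups compared, and 0 to 1 without 1 library. For that at 6 days, 2 passed with the GC correction, 0 with only the groups compared, and 0 to 3 without 1 library. For that under PRMT5i, 1 passed at 0.01, 5 with only the groups compared, and 1 to 7 without 1 library.

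Replicates of equal number are not stated to share a culture, day or batch, and each group has 2. Their deviations correlated at 0.216 to 0.475 among the A375 groups of 72 hours and at -0.339 to 0.448 in CHL1. With the replicate block, 2, 5 and 9 members passed in CHL1 under CDK4/6i at 72 hours, at 6 days and under PRMT5i, and 10 passed in A375 under each inhibitor at 72 hours. For PRMT5i against CDK4/6i the block gave 6 in CHL1 and 8 in A375. With the block and the GC correction together, these counts were 6, 7, 4, 10 and 10, then 7 and 9. Between 6 days and 72 hours in CHL1, the block gave 0, as did the block with crossed 6-day numbers. No paired analysis was possible for A375 at 6 days because the labels give those replicates no numbers.

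The log2 changes that took the other sign were these. MCM10 under PRMT5i in CHL1 was -0.40 with the GC correction, -0.39 with the block and the GC correction, -0.007 without control replicate 2 and -0.004 without CDK4/6i 72-hour replicate 1, up to 0.104 without control replicate 1. In A375 at 6 days of CDK4/6i, MCM3 was -0.052 with median-of-ratios scaling and with DESeq2, -0.018 with the genes with a GC value only, -0.37 with the GC correction, -0.019 with only the groups compared, -0.76 against the 72-hour control, -0.041 without the 72-hour control replicate 2, -0.171 without CDK4/6i replicate 1 and from -0.219 to 0.309 over all libraries left out. MCM5 was 0.016 with limma voom. Leaving out 1 library gave -0.817 to 0.135 for MCM2, -0.511 to 0.54 for MCM5 and -0.524 to 0.26 for MCM7, the lowest without the 6-day control replicate 1 and the highest without replicate 2. For PRMT5i against CDK4/6i in CHL1, the GC correction gave 0.227 (MCM2), 0.13 (MCM3), 0.146 (MCM5) and 0.659 (MCM7), and with the block 0.228, 0.124, 0.146 and 0.658. The line difference of CDT1 under PRMT5i was 0.298 with the GC correction.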
